A study of Solanum lycopersicum with 18 samples.

Results

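Mitogen-activated protein (MAP) kinase transcripts were followed through m6A-seq peak lists of tomato fruit. Of 5 MAP kinase genes, MPK14 (Solyc04g007710), MPK1 (Solyc12g019460), MPK2 (Solyc08g014420), MPK3 (Solyc06g005170) and Solyc01g094960 (listed as MPK4), 3 overlapped a peak and 2 did not. The genes were taken by name as members of the family, except MPK14, which was chosen by its fold enrichment in these lists: its enrichment in *Cnr* fruit lay farthest above that of wild type at the same age. Their rows were all those in which the overlapped gene was a member, which gave 27 of 105726 rows and 3 of 11176 genes.

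The samples were pericarps of tomato cv. Ailsa Craig. *Cnr* fruit at 42 days post-anthesis (DPA) carry *Colorless non-ripening*, a heritable epigenetic change that blocks ripening and accompanies high DNA methylation, in the same cultivar. Wild-type fruit were taken at the same age, when ripening starts (breaker), and at 39 DPA (mature green). Each group had 3 biological replicates, each pooled from many fruit and with an anti-m6A immunoprecipitated (IP) and an input library, so that 18 libraries gave 9 peak lists. *Cnr* and wild-type fruit of equal age differ in both genotype and ripening state, which cannot be told apart here. The lists hold peaks and no expression levels, so tissue and genotype were not checked against marker genes.

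N6-methyladenosine (m6A) is the commonest internal mark of mRNA and lies mostly around the stop codon and in the 3′ UTR. MAP kinases are the last of a relay of protein kinases: a MAP kinase kinase kinase activates a MAP kinase kinase, which phosphorylates and activates the MAP kinase, and this passes the signal to transcription factors and enzymes. In tomato, MPK1 and MPK2, close copies of each other, act in wound and systemin signalling, and MPK3 is activated by wounding and pathogens. In *Arabidopsis*, MPK4 acts in defence and at cell division. Peaks report methylation of the transcripts of these kinases and say nothing of kinase activity.

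The 9 lists held between 9246 and 10407 peaks. The measure is the fold enrichment at a peak's summit, the number of IP fragments over the background. The background is taken from the input around the summit but cannot fall under a floor set by the depth of the library, which lay between 44.6 and 51.1 fragments. Between 40.2% and 48.8% of the summits of a list lay on that floor. The median enrichment of a list was 7.15, 5.78 and 7.67 in *Cnr*, against 5.60, 5.62 and 5.02 in wild type at 42 DPA and 5.08, 5.37 and 5.64 at 39 DPA. *Cnr* replicate 2 was thus nearer to wild type than the other *Cnr* replicates.

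Presence did not differ between groups for any member. MPK14, MPK1 and Solyc01g094960 each had 1 peak in 9 of 9 lists, with the summit inside a window of 13, 13 and 27 bp. MPK2 was named in no column of any list. MPK3 overlapped no peak and was named only as the next gene downstream of a peak in Solyc06g005160, in 9 of 9 lists. A missing peak says that no enrichment passed the authors' threshold at the depth and expression of the libraries, not that the transcript carried no m6A. MPK1 and MPK2 are close copies and only uniquely mapped reads were kept, and the effect of that on the missing MPK2 peak was not tested.

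The 3 peaks lay at the 3′ ends of their genes. That of MPK14 spanned chromosome 4, 1389721 to 1390241, over all lists (coordinates as deposited, build SL3.0). Its centre was annotated to the 3′ UTR in 9 of 9 lists, and its left edge to the last intron in 8 lists and to the last exon in wild-type 42 DPA replicate 3, where the peak was narrowest. The right edge was annotated as intergenic in *Cnr* replicates 1 and 3 and as 3′ UTR in the other 7 lists, although *Cnr* replicate 2 reached farther right. The authors' annotation assigned the same peak to Solyc04g007705, a plus-strand gene from 1389691 to 1391041. The library kit does not mark strand, so reads of MPK14 and of Solyc04g007705 cannot be told apart, and every MPK14 value below may hold both.

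The peak of MPK1 spanned chromosome 12, 10395958 to 10396386. MPK1 is a plus-strand gene from 10385402 to 10396340, and its peak began and was centred in the last exon in 9 of 9 lists. The summits lay 177 to 190 bp before the annotated end of the gene. The right edge passed that end by 42, 33 and 46 bp in *Cnr*, by 16, 18 and 25 bp in wild type at 42 DPA and by 36, 38 and 37 bp at 39 DPA. The MPK1 peak thus reached least far in wild type at 42 DPA, without overlap with the other groups. For how many of all regions the edges separate was not counted. Peaks are called wider where the signal is higher, so this edge and the IP signal of MPK1 given below are not separate readouts. The peak of Solyc01g094960, on chromosome 1 from 86238238 to 86238619, lay wholly in the 3′ UTR in 9 of 9 lists. The name MPK4 is uncertain for this gene: RefSeq places MAPK4 of tomato on chromosome 11 and on chromosome 1 lists MAPK5, also called MPK4-2.

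MPK14 was the member with the widest range. Its fold enrichment was 21.9, 16.1 and 22.5 in *Cnr*, against 5.17, 4.07 and 3.64 in wild type at 42 DPA. It was 9.11, 8.09 and 11.5 in wild type at 39 DPA. The groups did not overlap, and the order was *Cnr*, wild type at 39 DPA, wild type at 42 DPA. The means were 20.2 ± 3.54 in *Cnr*, 4.30 ± 0.789 in wild type at 42 DPA and 9.56 ± 1.74 at 39 DPA (SD, n = 3 each).

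**Figure D1:**
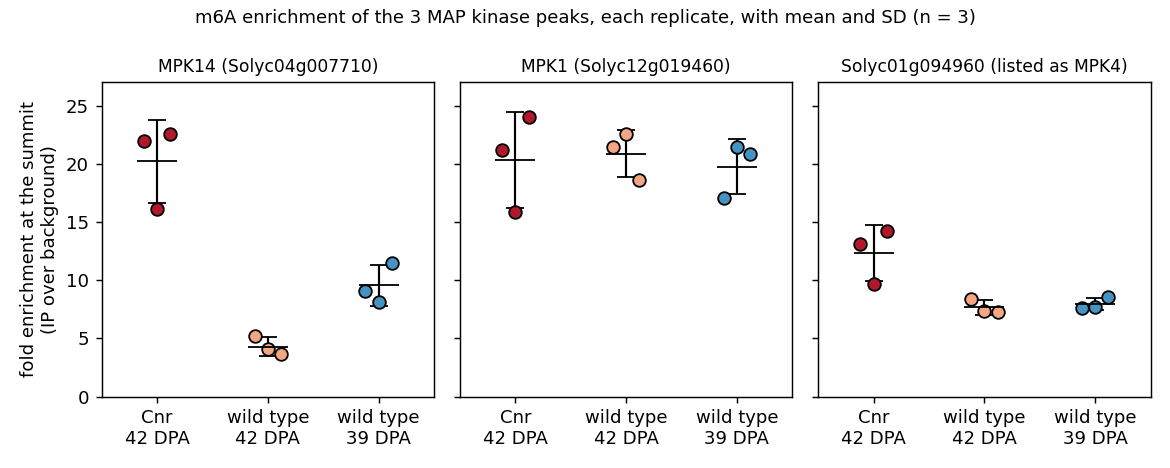
Fold enrichment at the summit (y axis, IP over background) of MPK14, MPK1 and Solyc01g094960 in *Cnr* at 42 DPA, wild type at 42 DPA and wild type at 39 DPA (x axis). Points are the 3 replicates of a group, in order from left to right, and bars the mean and SD. The 3 groups are separate at MPK14 (means 20.2, 4.30 and 9.56), overlap at MPK1, and at Solyc01g094960 only *Cnr* stands apart.

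In *Cnr* against wild type at 42 DPA, the MPK14 region had a log2 fold change of 2.23 (SE 0.173), the highest of 8007 regions with a peak in all 6 lists. This contrast chose the gene, so the value is a description with no test. Among these regions 27.1% passed the threshold of at least 1.5-fold with an adjusted p under 0.05, 25.2% higher and 1.91% lower in *Cnr*, and 53.3% had groups that did not overlap, 48.2% with *Cnr* higher and 5.08% with *Cnr* lower. The median log2 fold change of all regions was 0.357. With each list centred on its own median, the median was −0.03, 432 regions were called higher and 621 lower in place of 2014 and 153, and the value of MPK14 was 1.84.

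In wild type at 42 DPA against 39 DPA, MPK14 had a log2 fold change of −1.15 (SE 0.139), the 23rd lowest of 8550 regions. No test is given, because the wild-type lists at 42 DPA had a part in choosing the gene. Of those regions 4.55% passed the threshold, 1.54% higher and 3.01% lower at 42 DPA, and in 28.0% the groups did not overlap, 18.0% with 42 DPA lower. With each list centred on its median, 182 regions were called higher and 178 lower in place of 132 and 257. The 2 comparisons share these lists, so low values there move both changes of MPK14.

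The same enrichment values, ranked within each list, place MPK14 among the other peaks and are no separate evidence, since they chose the gene. MPK14 stood above 97.7%, 97.1% and 96.5% of the peaks in the *Cnr* lists, above 46.2%, 34.3% and 33.2% in wild type at 42 DPA and above 81.1%, 71.9% and 85.0% at 39 DPA. It was among the most enriched peaks in *Cnr* and below the middle in breaker fruit.

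The IP fragments and the background behind each enrichment were solved from the deposited enrichment and p-value. At the MPK14 summit the IP fragments numbered 1246, 851 and 1178 in *Cnr*, against 257, 197 and 188 in wild type at 42 DPA and 470, 421 and 581 at 39 DPA. Relative to the floor of each library, the IP signal was 25.5, 18.9 and 26.4 in *Cnr*, against 5.26, 4.14 and 3.70 in wild type at 42 DPA and 9.27, 8.23 and 11.7 at 39 DPA. With the background on or near the floor in every list, the recorded enrichment had to follow the IP signal. At MPK14 these are thus not separate readouts. The background was 1.14, 1.15 and 1.15 times the floor in *Cnr* and on the floor in all 6 wild-type lists. On the floor the input can be at or under that level, so neither its true value nor an enrichment corrected for it is known there. In pericarp, fewer cells of a type and less RNA per cell cannot be told apart.

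**Figure D2:**
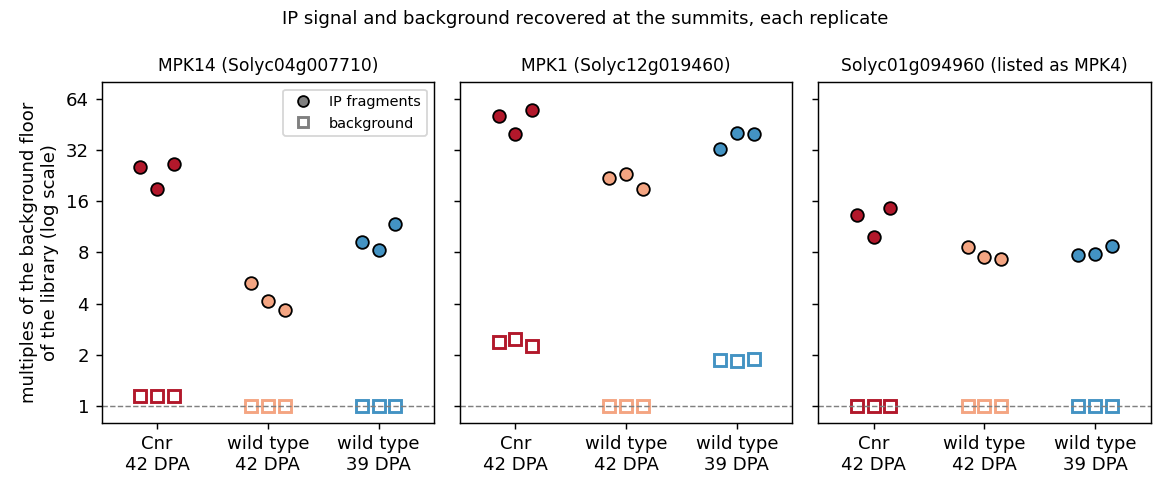
IP fragments (filled circles) and background (open squares) at the summits of MPK14, MPK1 and Solyc01g094960, in multiples of the background floor of the library (y axis, log scale, dashed line at the floor), for *Cnr* at 42 DPA, wild type at 42 DPA and wild type at 39 DPA (x axis). Each symbol is 1 replicate. At MPK14 the circles are separate while the squares stay near the floor, with 1.15 times at most, whereas at MPK1 circles and squares shift together.

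The width of the MPK14 peak followed the same order. It was 392, 489 and 417 bp in *Cnr*, against 271, 244 and 237 bp in wild type at 42 DPA and 331, 296 and 336 bp at 39 DPA. The widths did not overlap between groups, and the mean differed by 182 bp between *Cnr* and wild type at 42 DPA. The share of all regions with widths that do not overlap was not counted. The summit stayed between 1389930 and 1389943 throughout. A caller extends a peak farther where the signal is higher, so width and enrichment are not separate readouts.

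**Figure D3:**
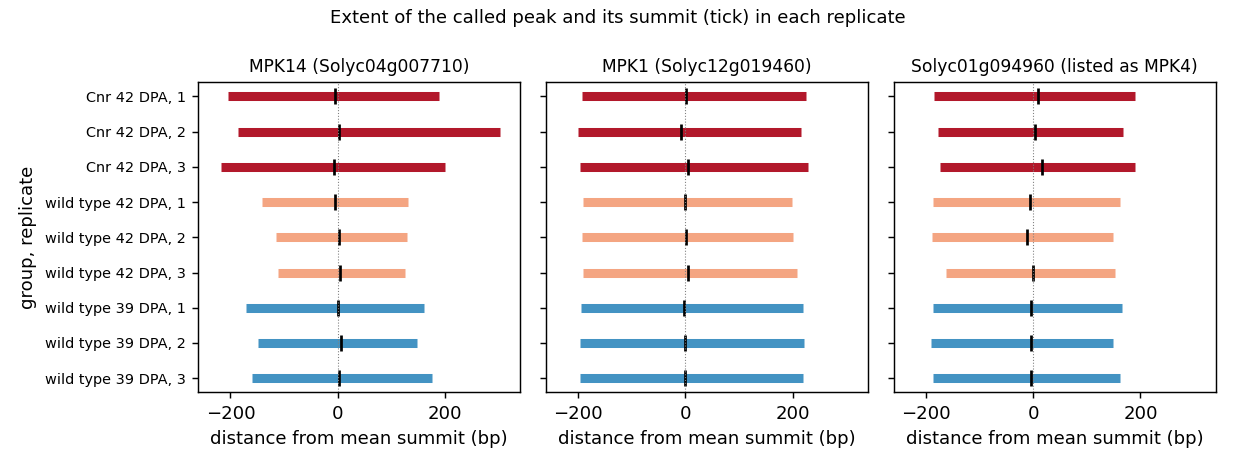
Extent of the called peak (bars) of MPK14, MPK1 and Solyc01g094960 in each replicate (rows, *Cnr* at 42 DPA, then wild type at 42 DPA and at 39 DPA), as distance in bp from the mean summit of the gene (x axis). The black tick is the summit of the list. Summits coincide within 27 bp or less, and the MPK14 bar is widest in *Cnr* (392 to 489 bp) and narrowest in wild type at 42 DPA (237 to 271 bp).

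MPK1 was highly enriched in every group. Its fold enrichment was 21.2, 15.9 and 24.0 in *Cnr*, 21.5, 22.6 and 18.6 in wild type at 42 DPA and 17.0, 21.4 and 20.8 at 39 DPA. All 3 groups overlapped, with means of 20.4 ± 4.11 in *Cnr*, 20.9 ± 2.04 in wild type at 42 DPA and 19.8 ± 2.38 at 39 DPA (SD, n = 3 each). In *Cnr* against wild type at 42 DPA its log2 fold change was −0.05 (SE 0.173, limma with Benjamini-Hochberg adjustment over all regions, adjusted p = 0.812). In wild type at 42 DPA against 39 DPA it was 0.08 (SE 0.139, limma, adjusted p = 0.763). MPK1 passed the threshold in neither comparison.

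Its level relative to other peaks was lower in *Cnr*. MPK1 stood above 96.9%, 96.8% and 97.4% of the peaks of the *Cnr* lists, and above 99.6%, 99.8% and 99.5% of those in wild type at 42 DPA. Of all regions compared, 86.5% had a higher log2 fold change in *Cnr* than MPK1. With each list centred on its median the value was −0.44 (limma, adjusted p = 0.00275), which is under the 1.5-fold threshold. MPK14 and MPK1 thus had nearly the same enrichment in *Cnr* (means 20.2 and 20.4) and very different values in wild type at 42 DPA (4.30 and 20.9).

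Behind the overlapping enrichments of MPK1, IP signal and background each separated wild type at 42 DPA from the other groups. The IP fragments were 50.6, 39.6 and 54.9 times the floor in *Cnr*, against 21.9, 23.0 and 19.0 in wild type at 42 DPA and 32.3, 40.1 and 39.7 at 39 DPA. The background was 2.37, 2.47 and 2.27 times the floor in *Cnr*, on the floor in all 3 lists of wild type at 42 DPA and 1.88, 1.85 and 1.89 times the floor at 39 DPA. Both were lowest in wild type at 42 DPA, without overlap. How many of all regions separate in this way by IP signal or background was not counted. An exact two-sided permutation test gave p = 0.1 for IP signal and for background in either comparison, the smallest that 3 against 3 lists allow. The mean background at MPK1 was at least 2.37-fold higher in *Cnr* than in wild type at 42 DPA, since the wild-type input may lie under the floor. The enrichment of MPK1 in wild type at 42 DPA is then a lower limit, and overlapping enrichments do not show equal methylation per transcript.

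Solyc01g094960 had a fold enrichment of 13.1, 9.65 and 14.2 in *Cnr*, against 8.42, 7.37 and 7.23 in wild type at 42 DPA. It was 7.60, 7.67 and 8.56 in wild type at 39 DPA. *Cnr* stood above both wild-type groups without overlap, as did 48.2% of all regions against wild type at 42 DPA, while the wild-type groups overlapped. The means were 12.3 ± 2.39 in *Cnr*, 7.67 ± 0.653 in wild type at 42 DPA and 7.94 ± 0.535 at 39 DPA (SD, n = 3 each).

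Enrichment of Solyc01g094960 rose in *Cnr* against wild type at 42 DPA by a log2 fold change of 0.67 (SE 0.173, limma, adjusted p = 0.000588). The call was lost with each list centred on its median, where the value was 0.28 (limma, adjusted p = 0.0347), and without *Cnr* replicate 3, where it was 0.55 (limma, adjusted p = 0.0143), both under 1.5-fold. In wild type at 42 DPA against 39 DPA the value was −0.05 (SE 0.139, limma, adjusted p = 0.861). Its background was on the floor in 9 of 9 lists, so the enrichment followed the IP fragments alone, 652, 442 and 648 in *Cnr*, against 419, 357 and 374 in wild type at 42 DPA and 392, 399 and 433 at 39 DPA. *Cnr* replicate 2 was the lowest *Cnr* value at MPK14, MPK1 and Solyc01g094960 alike, as it was for the list median.

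**Figure D4:**
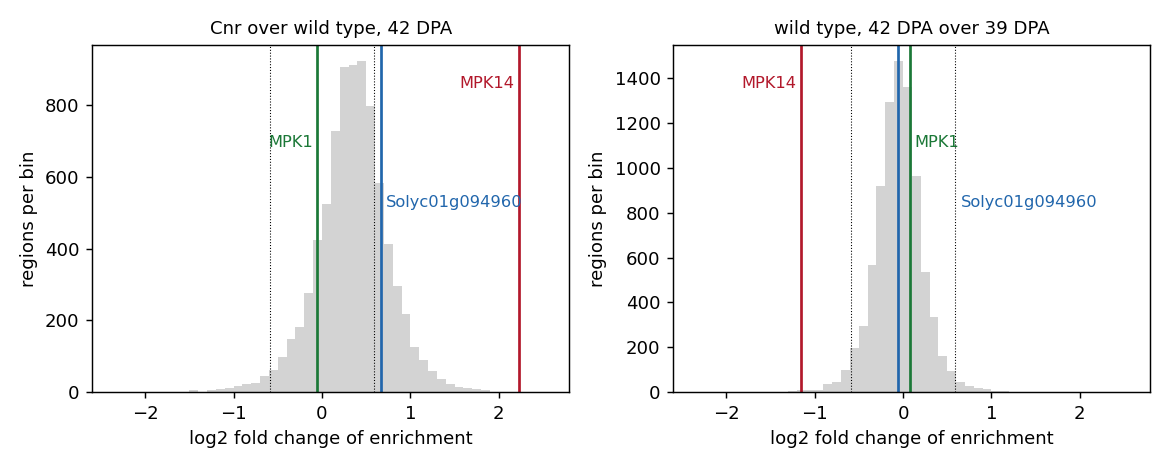
Number of regions per bin of 0.1 (y axis) by log2 fold change of enrichment (x axis), for *Cnr* over wild type at 42 DPA (left, 8007 regions) and wild type at 42 DPA over 39 DPA (right, 8550 regions). Vertical lines mark MPK14, MPK1 and Solyc01g094960, and dotted lines 1.5-fold in each direction. MPK14 lies at 2.23 and at −1.15, in the tails of the distributions, whereas MPK1 lies at −0.05, left of the bulk on the left panel.

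The other MAP kinases of the lists were found by the term for MAP kinase activity in the authors' gene annotation, which 9 further genes carried. That annotation covers genes at or next to a peak, so a MAP kinase far from any peak, as MPK2 was, is not counted. Of these, 7 had a peak, and Solyc05g008020 and Solyc06g068990 had none. In *Cnr* against wild type at 42 DPA, 8 regions of these 7 genes were compared: 2 were called higher, 0 lower, and 6 did not pass. Their median log2 fold change was 0.452, against 0.357 over all regions, and 2 of 8 stands beside the 25.2% called higher over all regions. In wild type at 42 DPA against 39 DPA, 7 regions of 6 genes were compared, of which 0 were called higher and 1 lower, with a median of −0.02 against −0.05 over all regions. Over all regions of that comparison 1.54% were called higher and 3.01% lower.

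The 2 regions called higher in *Cnr* belonged to Solyc12g040680 and MPK6 (Solyc05g049970). Solyc12g040680 had a fold enrichment of 20.7, 11.998 and 22.3 in *Cnr*, against 10.1, 6.09 and 8.21 in wild type at 42 DPA and 14.9, 9.34 and 14.8 at 39 DPA. It rose in *Cnr* by a log2 fold change of 1.15 (SE 0.173, limma, adjusted p = 1.07e-09). With centring the value was 0.76 (SE 0.211, limma, adjusted p = 0.0181), and the call held. It fell in wild type at 42 DPA against 39 DPA, at −0.68 (SE 0.139, limma, adjusted p = 3.81e-05), although the groups overlapped. With centring that fall was −0.62 (SE 0.201, limma, adjusted p = 0.0405). Its log2 enrichment had an SD of 0.488 in *Cnr*, 0.365 in wild type at 42 DPA and 0.388 at 39 DPA. An exact two-sided permutation test of enrichment gave p = 0.1 in the first comparison and 0.2 in the second. Among the further MAP kinases Solyc12g040680 was thus the one called in both comparisons. Its means were ordered *Cnr*, wild type at 39 DPA, wild type at 42 DPA, as at MPK14, for which no test is given. MPK6, Solyc07g056350, Solyc04g080730 and Solyc01g094960 had means in the same order, at Solyc04g080730 with 7.32 in wild type at 42 DPA and 7.44 at 39 DPA. Over all regions, 83.4% had a positive log2 fold change in *Cnr* against wild type at 42 DPA. In wild type at 42 DPA against 39 DPA 41.7% were positive. How many of all regions had this order was not counted. The wild-type call of Solyc12g040680 was lost without 42 DPA replicate 2 (−0.49), 39 DPA replicate 1 (−0.57) or 39 DPA replicate 3 (−0.57).

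MPK6 had a fold enrichment of 6.85, 5.68 and 7.54 in *Cnr*, against 4.29, 4.57 and 3.87 in wild type at 42 DPA and 5.24, 5.02 and 5.996 at 39 DPA. It rose in *Cnr* by 0.65 (SE 0.173, limma, adjusted p = 0.00083). The value was 0.26 with centring and 0.56 without *Cnr* replicate 3, both under 1.5-fold. In wild type at 42 DPA against 39 DPA the groups of MPK6 did not overlap, as in 28.0% of all regions and, with 42 DPA lower, in 18.0%, and its value of −0.35 did not pass (limma, adjusted p = 0.0661). MPK6 and MPK11 were known by name from the study's lists of transcripts with changed enrichment, not from its text, so their values are not independent of these samples.

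MPK11 (Solyc07g062080) was the MAP kinase whose peak differed in presence. Its 3′ UTR peak, on chromosome 7 from 65041841 to 65042114, was in 3 of 3 *Cnr* lists, 3 of 3 lists of wild type at 42 DPA and 0 of 3 at 39 DPA. The enrichment was low, at 2.53, 3.28 and 2.91 in *Cnr*, against 1.80, 2.36 and 1.90 in wild type at 42 DPA. At 39 DPA replicate 1 alone had another MPK11 peak, around exon 9, with an enrichment of 1.71. With peaks of at least 2-fold enrichment only, an MPK11 peak was left in 3 of 3 *Cnr* lists, 1 of 3 lists of wild type at 42 DPA and 0 of 3 at 39 DPA. Presence is a call at a threshold, and the difference in presence between groups was not tested.

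The remaining genes with a peak had positive log2 fold changes in *Cnr* that did not pass the threshold, with means in *Cnr* between 4.32 (Solyc07g056350) and 12.8 (Solyc01g080240). Solyc07g056350 (0.53, limma, adjusted p = 0.0072) and MPK11 (0.53, limma, adjusted p = 0.0070) missed only the 1.5-fold minimum. Solyc07g056350 was called higher without *Cnr* replicate 3 or wild-type 42 DPA replicate 2. MPK11 was called higher without *Cnr* replicate 1 or wild-type 42 DPA replicate 2. With centring, 4 of the 8 regions were positive, beside 46.5% of all regions, and 1 was called higher, that of Solyc12g040680, beside 432 of all 8007. The 8 regions also lay at the 3′ end, centred in the last exon or the 3′ UTR, and the second peak of Solyc11g072630 was also assigned to Solyc11g072640.

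**Figure D5:**
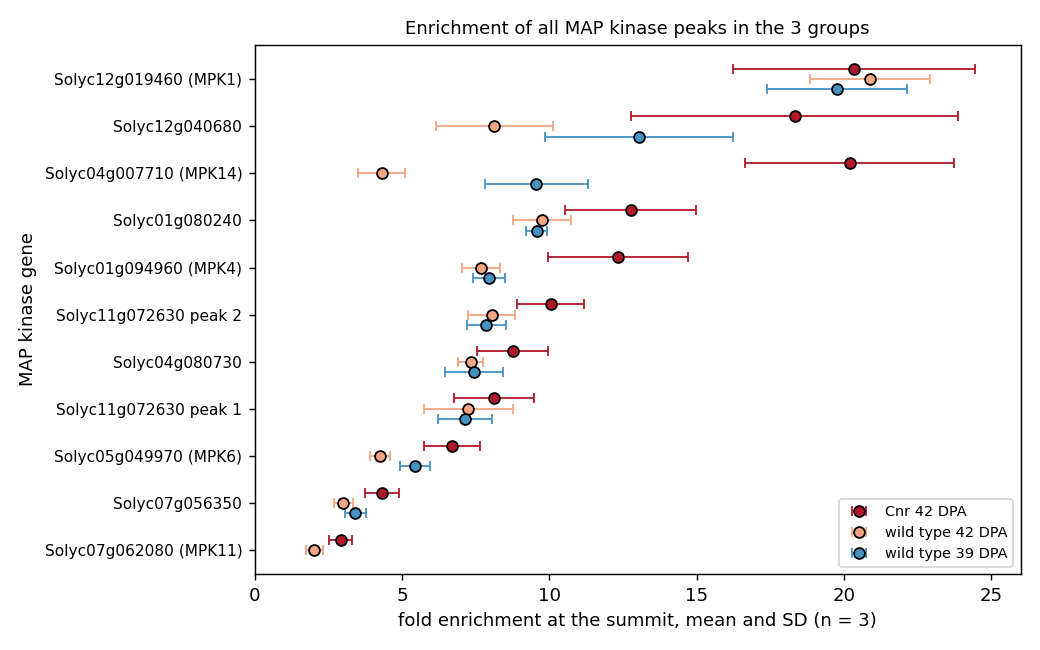
Mean fold enrichment at the summit with SD (x axis, n = 3) of all MAP kinase peaks found in every list of a group (rows, ordered by mean), for *Cnr* at 42 DPA, wild type at 42 DPA and wild type at 39 DPA. MPK14 and Solyc12g040680 have the widest gaps between groups, with means of 20.2 and 18.3 in *Cnr* against 4.30 and 8.12 in wild type at 42 DPA, and MPK11 has no value at 39 DPA.

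The regions whose enrichment was most like that of MPK14 over the 9 lists were found by Pearson's r of log2 enrichment, centred on each list, over 7836 regions with a peak in all lists. The 5 highest were Solyc07g032110 (r = 0.990), Solyc12g088340 (0.987), Solyc12g099560 (0.985), Solyc07g063120 (0.984) and Solyc12g013950 (0.981). All 5 had the order of MPK14, which follows from choosing them by this r and is no separate result. The geometric mean enrichment at Solyc12g099560 was 14.2 in *Cnr*, 3.46 in wild type at 42 DPA and 7.61 at 39 DPA. The points share their libraries and fall into 3 groups, so r is given as a description. Without centring, Solyc12g088340 was the one of these 5 that stayed among the 5 highest.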

How the data were processed

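The authors sequenced anti-m6A IP and input libraries of fragmented mRNA from 3 replicates of each group, trimmed the reads, aligned them to SL3.0 with BWA, kept unique alignments and called peaks per replicate with MACS. The submitters' processing notes also name FastQC 0.11.7 and cutadapt 1.16. The deposited values used are the fold enrichment (a ratio of IP fragments to background), the −log10 p-value and the −log10 q-value of each summit, and the peak score that the authors gave. The headers of 2 lists lack the names of both −log10 columns, whose position was used instead and checked against the score. The authors annotated the overlapped genes and gene parts.

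Peaks sharing at least 1 bp were merged across lists, with the highest summit of a list used. Log2 enrichment of regions present in all 6 lists was compared with limma 3.58.1 (R 4.3.3), two-sided, adjusted by Benjamini-Hochberg over all regions, and called at 1.5-fold and an adjusted p under 0.05. In each main fit limma estimated 1 spread for all regions, so the SE is the same at each. These p-values rest on a pooled spread, which includes shifts of whole lists within a group. All regions of a list share such a shift, but the fit treats it as separate noise in each region. With centring, and in *Cnr* against wild type without wild-type replicate 3, the spread differed by region. The p-values of those fits thus rest on another spread than the main ones. P-values measure the spread between these replicates. IP fragments and background were solved from enrichment and p-value under the Poisson model of MACS, for 92196 of 92197 summits, with 99.9% of IP numbers whole within 0.1. Both steps were tested on simulated data. The data simulated for limma held no shift of a whole list, so that test does not cover such shifts. Same-numbered replicates of *Cnr* and wild type at 42 DPA had correlated deviations (r = 0.184, 0.442 and 0.341), and a fit with the replicate number as a block was added. *Cnr* replicate 1 with wild-type replicate 3 (0.19) and *Cnr* replicate 3 with wild-type replicate 1 (0.231) correlated as much as the pair numbered 1, so the numbers are not shown to mark true pairs.

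The genes, their list and the comparisons were chosen with earlier results of these data known. All members are named. The reference table matched 0 identifiers of the lists, so the further MAP kinases, planned as the 2 in the study's lists of changed transcripts, were extended after the files were seen to the 9 with that activity in the authors' annotation, named with values where called, chosen by the study or absent. MAP kinase kinases were not analysed here. No sequence is shown, as no genome or sequence table of this build was used here. Python 3.11.15 was used for the other values.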

Additional observations from a re-analysis of the deposited data

How the results depend on the processing

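Results were recomputed with each list centred on its median, a replicate block, a 50 bp overlap, peaks of at least 2-fold or with −log10 q of at least 5, the mean over summits, all 9 lists in 1 fit, unadjusted p, no fold minimum and each replicate left out. The replicate block left the MPK14 value at 2.23 and changed no member's call, and Solyc01g094960 kept an adjusted p of 0.0023 (limma). Between wild type at 42 DPA and 39 DPA same-numbered replicates had r of 0.227, 0.337 and 0.0847, against −0.356 to 0.167 for different numbers. Whether equal numbers mark true pairs there is not known. In that comparison the block left 132 and 257 regions called higher and lower. Centring gave, in *Cnr* against wild type at 42 DPA, 1.84 for MPK14, 0.28 for Solyc01g094960, −0.0096 for Solyc01g080240, −0.14 for Solyc04g080730, −0.21 and −0.069 for the peaks of Solyc11g072630, and 432 regions higher and 621 lower. In wild type at 42 DPA against 39 DPA it gave 0.0048 for Solyc01g094960 and 0.041 for Solyc04g080730. Without a fold minimum 3722 regions were higher and 322 lower in *Cnr*, and 457 higher and 856 lower in wild type at 42 DPA against 39 DPA.

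Leaving out 1 replicate at a time, *Cnr* against wild type at 42 DPA gave 2.12 to 2.39 for MPK14, −0.18 to 0.12 for MPK1, whose sign turned without *Cnr* or wild-type replicate 2, and 0.55 to 0.84 for Solyc01g094960, with 1484 to 2970 regions higher and 132 to 212 lower. Wild type at 42 DPA against 39 DPA gave −1.30 to −1.01 for MPK14, −0.021 to 0.16 for MPK1, −0.12 to 0.0035 for Solyc01g094960, −0.044 to 0.10 for Solyc01g080240, −0.12 to 0.067 for Solyc04g080730, −0.15 to 0.15 and −0.037 to 0.10 for the peaks of Solyc11g072630, 115 to 219 regions higher and 194 to 378 lower. The highest count, 219, came without wild type 42 DPA replicate 3. The causes were not tested. Precision is limited by 3 replicates a group and by the background floor, which hides the input level at MPK14 in wild type and at Solyc01g094960 in all groups.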
